A study of Xenopus laevis with 11 samples.

Results

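The znf genes are zinc finger genes that were given serial numbers rather than names of their own. All protein-coding genes of the RefSeq gene table of the Xenopus laevis v10.1 assembly whose symbol is znf followed by a digit, on the 18 chromosomes, were taken. They numbered 191 of 34461 protein-coding genes and carried 122 different symbols. Of the 191, 103 were copies on the L subgenome by name, 86 were S copies, and znf182 and znf214 carried no suffix. X. laevis is allotetraploid, so that many genes have an L and an S copy, called homeologs, and 69 znf symbols formed such a pair. The names of 2 genes went against their place in this table, since znf451.L lies on chromosome 5S and znf668.L on 9_10S.

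Most znf proteins carry fingers of the C2H2 type, in which a zinc ion held by cysteines and histidines folds a short stretch of protein that can read DNA or bind RNA. Many are sequence-specific transcription factors that recruit corepressors, and large groups of them lie side by side in vertebrate genomes after tandem duplication. Others share only the finger and the name, and act in ribosome quality control, splicing or chromosome segregation. The blastula at NF stage 9 has begun to transcribe its own genome, and its animal cap is the pluripotent roof of the embryo that forms ectoderm in isolation.

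Accessibility was measured by ATAC-seq, in which the transposase Tn5 inserts adapters into open DNA, in caps explanted from wild-type embryos of the strain Xla.NXR-WTNXR. Each reaction held 2 caps, so that a value averages all cells of the explant. The file used here is 1 list of peaks called on the 6 stage 9 libraries of 4 replicates after pooling, and the 5 stage 8 libraries were not analysed here. No value below therefore has an error between replicates, no test between groups was possible, and the intervals are 95% Wilson or Poisson intervals that cover counting error only. The 6 symbols found of 7 ectoderm and pluripotency markers had 12 gene copies. All 12 had a peak within 10 kb, and 11 had one within 1 kb of an end, the exception being pou5f3.3.L. Over all protein-coding genes these shares were 63.1% and 47.8%, and over genes not named by a LOC number 74.6% and 60.9%. Markers of other tissues were not set beside them, so that these counts do not check the tissue.

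The list held 58215 peaks on the chromosomes. The height of a peak is its fold enrichment, which had a median of 5.51. It is the ratio of fragment coverage in the summit to a background, which is local but not below a genome-wide value of 0.626 fragments. Where the background is at this floor, as at znf395.S, the fold follows from the fragment count alone. The control for this background came from another assay, CUT&RUN without antibody. The median summit was covered by 9 fragments (Poisson interval 4.12 to 17.1) and no peak by fewer than 5, so that at a gene without a peak accessibility may be present but too low to be seen at this depth. Which end of a gene is its start was not given in the gene table used here. A peak was therefore called an end peak when the summit was at most 1 kb away from 1 of the gene's ends. It was called distal when its summit lay beyond 1 kb of both ends of every protein-coding or lncRNA gene. Exons, introns and UTRs were not told apart.

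An end peak was present at 140 of the 191 znf genes, or 73.3% (66.6 to 79.1), against 47.8% of all protein-coding genes. Genes with a name other than a LOC number are the closer comparison, and 60.9% of these 22412 had one. A distal peak within 10 kb was present at 99 znf genes, 51.8% (44.8 to 58.8), against 35.9% of all and 40.9% of named genes. Peaks of either kind, or at the end of another gene, lay within 10 kb of 169 znf genes, 88.5% (83.2 to 92.3) against 63.1% of all and 74.6% of named genes. All 3 shares lay above those of all genes and of named genes by more than their counting intervals. By subgenome this held for end peaks at L copies (77.7%, 68.7 to 84.6, against 61.0% of L copies in general). At S copies the interval (69.8%, 59.4 to 78.5) held the general share of 60.9%.

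**Figure D1:**
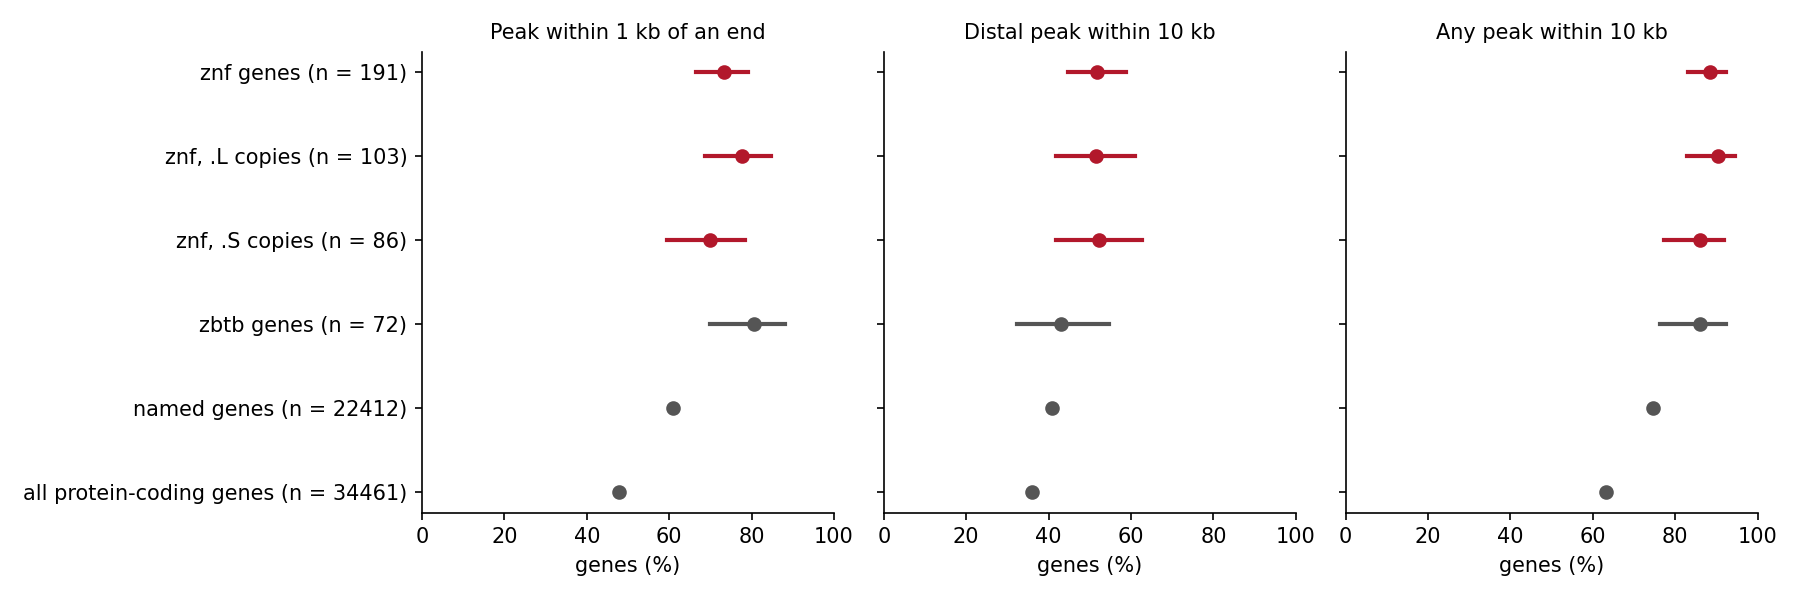
Share of genes (%) with a peak within 1 kb of an end, a distal peak within 10 kb and any peak within 10 kb, with bars for 95% Wilson intervals. The znf genes (73.3%, 51.8% and 88.5%) lie to the right of named genes and of all protein-coding genes in each panel, and the intervals of the zbtb genes overlap theirs.

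The zbtb genes, whose proteins join C2H2 fingers to a BTB domain for pairing, were the most similar family. Of 72 zbtb genes 80.6% (70.0 to 88.0) had an end peak and 43.1% (32.3 to 54.6) a distal peak, and both intervals overlapped those of the znf genes. In classes of gene length, the znf share with an end peak was above that of named genes except among the longest. Whether length bears on the difference was not tested. Among genes under 10 kb, 77.2% of 57 znf genes (64.8 to 86.2) and 57.7% of named genes had an end peak. Between 10 and 50 kb the shares were 76.4% of 106 (67.5 to 83.5) and 62.2%. Above 50 kb, 53.6% of 28 znf genes had one (35.8 to 70.5), against 61.1% of named genes. With a −log10 q-value of at least 10, 7.14% of these long znf genes had one (1.98 to 22.6), below the 28.5% of long named genes. No excess of end peaks was thus seen among the long znf genes, although their distal share of 60.7% (42.4 to 76.4) was not lower than that of the short ones.

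A neighbouring gene can share an end peak. The end of another gene lay within 1 kb at 23 of 191 znf genes, against 5529 of 34461 protein-coding and 3718 of 22412 named genes. Of the 23, 19 had an end peak (82.6%, 62.9 to 93), against 64.5% of all and 77.3% of named genes with such a neighbour. Both shares lay within the znf interval. Among the other 168 znf genes 72.0% had one, against 44.6% of all genes and 57.6% of named genes without a neighbouring end. Of the znf genes with an end peak, 121 of 140 thus had no other gene end within 1 kb of their own ends. Among named genes with an end peak these were 10768 of 13642, so that this was no trait particular to the znf genes. A peak can also lie within 1 kb of a neighbour's end that is further off, and such peaks were not counted.

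The typical height of an end peak was close to that of other genes. The strongest end peak of a znf gene had a median fold enrichment of 7.99 (3.45 to 30.1), and the corresponding value over all genes was 7.86. The median number of fragments at its summit was 14 in both. At the upper end, 53 znf genes (27.7%) had an end peak of at least 10-fold, against 14.7% of all and 18.9% of named genes. At a −log10 q-value of at least 10, a stricter call, 69 znf genes (36.1%) had an end peak, against 22.9% of all genes and 29.6% of named genes. Here the znf interval of 29.6 to 43.1 reached the named share. Both shares are over all genes of a set, so that the higher share of znf genes with any end peak enters them. Of genes with an end peak, 53 of 140 znf and 4236 of 13642 named genes reached 10-fold. At the stricter q-value the counts were 69 of 140 and 6636 of 13642, which are similar parts.

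Several end peaks at a gene were common. At 79 znf genes there was 1, at 48 there were 2, at 8 there were 3 and at 5 there were 4. Together 61 genes (31.9%) had 2 or more, against 19.2% of all and 24.6% of named genes. Of the genes with an end peak these were 61 of 140 znf, 6616 of 16478 of all and 5515 of 13642 named genes. Those are similar parts, so that several end peaks were no trait particular to the znf genes that had any. The 5 genes with 4 were znf385b.L, znf408.S, znf674.S, znf703.S and znf740.L. Peaks at both ends were rare, at 9 znf genes (4.71%) against 3.35% of all and 3.69% of named genes, so that the end peaks of a gene usually sat at 1 of its ends. A peak inside the gene beyond 1 kb of its ends was present at 71 znf genes (37.2%, 30.6 to 44.2) against 27.5% of all and 32.7% of named genes, the latter within the znf interval.

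The 219 end peaks of znf genes lay somewhat further into the gene than usual. Of these, 152 (69.4%) had their summit inside the gene, against 58.2% over all genes. Within 100 bp of the end lay 33.3% of the znf and 37.2% of all end peaks. From 400 to 600 bp inside the gene lay 37 znf end peaks, 16.9% against 9.86%. The profile of the znf genes thus had a shoulder at that distance, as shown in the plot of summit positions. From 600 to 700 and 700 to 800 bp inside, the znf shares of 4.6% and 5.0% were also above the 3.6% and 2.9% over all genes. The window of 400 to 600 bp was not planned, and neither an interval nor the share over named genes was taken.

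**Figure D2:**
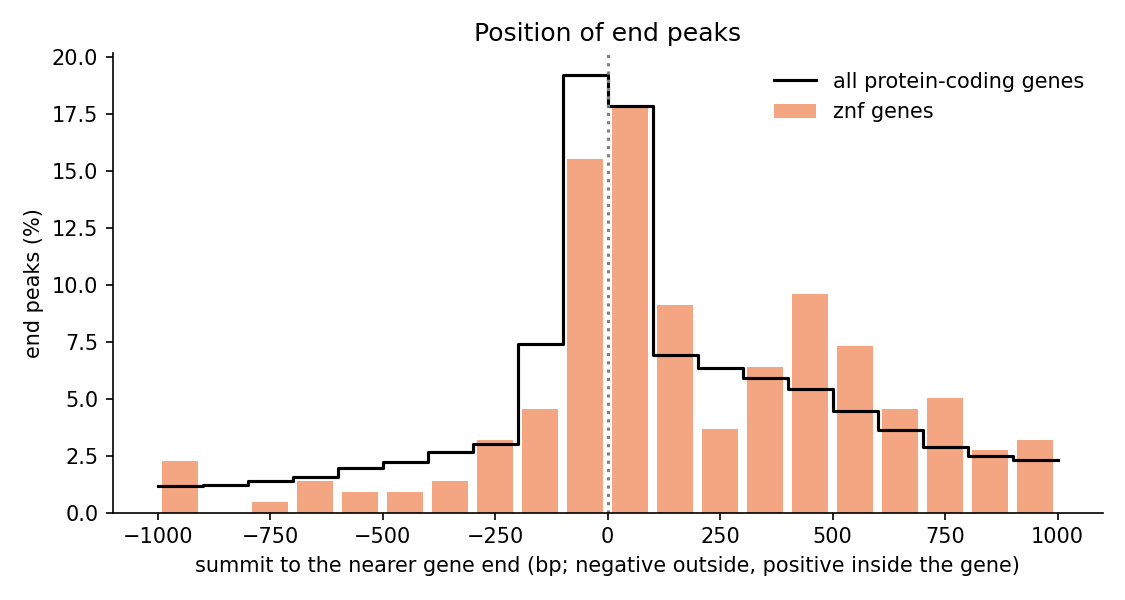
Distance (bp) from the summit of each end peak to the nearer end of its gene, in steps of 100 bp, as a share (%) of 219 znf end peaks (bars) and of all end peaks (line). Positive distances are inside the gene, where 69.4% of znf summits lie, and a shoulder of 16.9% spans 400 to 600 bp.

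Within 10 kb, the median znf gene had 2 peaks, and the mean was 2.56. Over all genes the median was 1 and the mean 1.77, and over named genes 1 and 2.11. The zbtb genes had a median of 2 and a mean of 3.07, and all genes in homeolog pairs 2 and 2.19. A median of 2 was thus not particular to the znf genes. No peak lay within 10 kb of 22 znf genes, 1 peak of 50, 2 of 40, 3 of 30, 4 of 21, and 5 or more of 28. Apart from the share with none, given below, these numbers were not taken over other genes. The znf counts include 58 cases of a peak at the end of another gene. End peaks had a median of 11 fragments and distal peaks 8, so that distal counts rest on the shallower peaks.

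The most peaks, 15, lay around znf585b.L (chromosome 6L, 2324940 to 2334066). Of these 2 were end peaks, 8 were distal and 5 lay at the ends of other genes, and its strongest end peak had a fold enrichment of 9.22. This is 1 of many zinc finger genes near the start of chromosome 6L. The genes znf143.S and znf674.S followed with 10 each, znf208.L with 9 and znf605.L with 8. Then came 6 genes with 7 peaks each, namely znf143.L, znf148.L, znf219.S, znf362.S, znf665l.S and znf839.L. Of the 5 highest counts, 3 were thus at genes of chromosome 6L.

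The highest end peak was that of znf395.S (chromosome 5S, 138761874 to 138785476), whose human counterpart is known as a factor that responds to hypoxia. Its fold enrichment was 30.1, with 48 fragments at the summit (Poisson interval 35.4 to 63.6), 270 bp outside the gene. The L copy (chromosome 5L, 164193185 to 164228412) had the highest value of all L copies of the family, 20.9 with 33 fragments (22.7 to 46.3), 6 bp outside the gene. The pair thus led the family on both subgenomes, and these peaks were 1203 and 1813 bp wide, against a median of 208 bp for znf end peaks. Each copy also had distal peaks within 10 kb. The L copy had a peak of 16.0-fold at 4134 bp outside, and the S copy had peaks of 9.22-fold at 1420 bp inside and 8.61-fold at 1385 bp outside.

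The second highest end peak was at znf674.S (chromosome 2S, 168313374 to 168325947), with a fold enrichment of 24.6 and 39 fragments (27.7 to 53.3), 25 bp inside the gene. No L copy of znf674 was among the genes studied. Next came znf653.S with 19.2 and 32 fragments. In mammals this protein represses the steroidogenic factor SF-1. The S copy had a further end peak of 16.0 and a distal peak of 19.1 at 3831 bp inside the gene, the highest distal peak of the family, and its L copy had an end peak of 10.4 with 26 fragments (17.0 to 38.1).

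The rest of the 10 highest were genes without an assigned role here, namely znf569.L (19.1), znf71.L (18.4), znf268.L (17.8), znf84-like.L (17.8), znf484.L (17.2) and znf605.L (16.6). All 6 are L copies, with 26 to 30 fragments at the summit. Their intervals overlapped one another, so that no order among them can be read. Of these, znf569.L, znf268.L, znf484.L and znf605.L lie in the first 6 Mb of 6L, and the other 2 are neighbours on 5L.

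The first 6 Mb of chromosome 6L held 14 znf genes among 198 protein-coding genes. An end peak was present at 10 of the 14, 71.4% (45.4 to 88.3), and at 49.0% of all genes there. All 14 had a peak within 10 kb, against 75.8% of the genes there. The strongest end peaks of these znf genes had a median of 11.7-fold and 18 fragments, against 9.22-fold and 15 fragments over all genes there. The stretch was singled out after its high znf end peaks were seen, so that a higher znf value is partly built in. The number of peaks around a znf gene here was 3.5 in the median, against 3 for all genes of the stretch, so that peaks were dense around its other genes too. One long gene of the stretch, znf214 (210501 bp), had no end peak but 15 peaks in its interior, which also holds znf84.L.

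Runs of 3 or more znf genes with at most 100 kb from one to the next were found 4 times and held 16 genes. An end peak was present at 10 of these 16 genes (62.5%, 38.6 to 81.5). Outside runs it was present at 130 of 175 genes, a difference within the counting intervals. The interval of the runs also held the shares of all (47.8%) and of named genes (60.9%), so that no excess was seen at the genes of runs. On 5L, znf572, znf71 and znf84-like all had an end peak, of 11.1, 18.4 and 17.8-fold, and none had a distal peak. On 6L, znf208, znf250 and znf852 had an end peak (7.99, 12.3 and 11.1-fold) while znf665l and znf577 had none. The corresponding run on 6S, znf665l, znf250, znf852 and znf577, showed the same pattern of presence, with end peaks at znf250 (11.1-fold) and znf852 (5.40-fold) alone. On 7L, znf229 (4.85-fold) and znf865 (10.7-fold) had an end peak and znf235 and znf581 had none. Zinc finger genes of a run can resemble each other in sequence, and reads that fitted several places were removed by the authors' mapping filter. Whether this affected any gene without a peak was not tested.

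The genes were then described by role. The developmental regulators were the 7 symbols found of 8 listed, with 13 genes (znf503 was not in the list of members). An end peak was present at 10 of 13 (76.9%, 49.7 to 91.8) and a distal peak at 11 (84.6%, 57.8 to 95.7), and none lacked a peak within 10 kb. Their strongest end peaks were low, with a median of 5.62-fold over 10 genes, against 7.99-fold over the family. Of these regulators, znf423.L, znf462.L and both copies of znf521 and znf536 are over 50 kb long. Among all znf genes of that length the median was 6.29-fold and the distal share 60.7%. Whether length or role goes with the values of the list was not tested. Over named genes 60.9% had an end peak, within the interval of the list, and 40.9% a distal peak, below it. Over the whole family 51.8% had a distal peak, and with 13 genes, of which most are pairs, the count is small.

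Among them znf703, a corepressor of the NET family with a role in the neural crest of Xenopus, had the highest end peaks. The L copy had 3 end peaks, the strongest of 12.3-fold with 31 fragments (21.1 to 44.0), and the S copy 4, the strongest of 8.68-fold with 14 fragments (7.65 to 23.5). Both lay close outside the gene, at 61 and 53 bp. Each of these short genes of about the same length (4342 and 4249 bp) was thus flanked by a tight cluster of peaks.

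The gene for znf750, a driver of epidermal differentiation in mammals, had an end peak at L of 5.40-fold with 13 fragments and none at S. Both copies had 2 distal peaks, 1 inside and 1 outside the gene. At L these were of 6.97 and 7.07-fold, and at S of 5.06 and 6.29-fold. Of these 4 distal peaks, 3 were thus above the single end peak at L.

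In mammals znf423 binds Smad proteins downstream of BMP, and znf521 is its close relative in neural progenitors. Both genes are over 200 kb long. At znf423.L, the only copy here, the end peaks were of 7.21 and 3.92-fold, and distal peaks of 5.51 and 4.33-fold lay within 2 kb of the same end. The pair of znf521 had end peaks of 4.54-fold (L) and 4.90-fold (S), with 7 and 8 fragments, and higher distal peaks of 7.28-fold (L) and 6.83-fold (S). The znf521.L gene had 7 peaks inside beyond 1 kb of its ends. The end peaks of znf521 were thus low beside the median of 6.42-fold over znf end peaks. The highest distal peak of each of these genes was above the median of 5.10-fold over znf distal peaks. All their peaks within 10 kb lay within 3 kb of an end.

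The neural repressor znf536 had distal peaks inside the gene in both copies, and an end peak at L alone. At znf536.L an end peak of 5.21-fold was followed inside the gene by 4 distal peaks within 4 kb of that end, the strongest 3609 bp inside with 8.97-fold and 27 fragments. At znf536.S there was no end peak, and the distal peaks lay 1313 bp (6.76-fold) and 3153 bp (9.84-fold) inside. Of these peaks the highest of each copy was thus the one furthest inside. The pair of znf462, a nuclear protein needed for the development of the nervous system in mammals, had end peaks of 6.08-fold (L) and 5.44-fold (S) with 18 and 16 fragments. The gene for znf219, a partner of Sox9 in mouse cartilage, had 7 peaks at S and 1 at L, but the 7 ranged only from 3.89 to 5.85-fold.

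**Figure D3:**
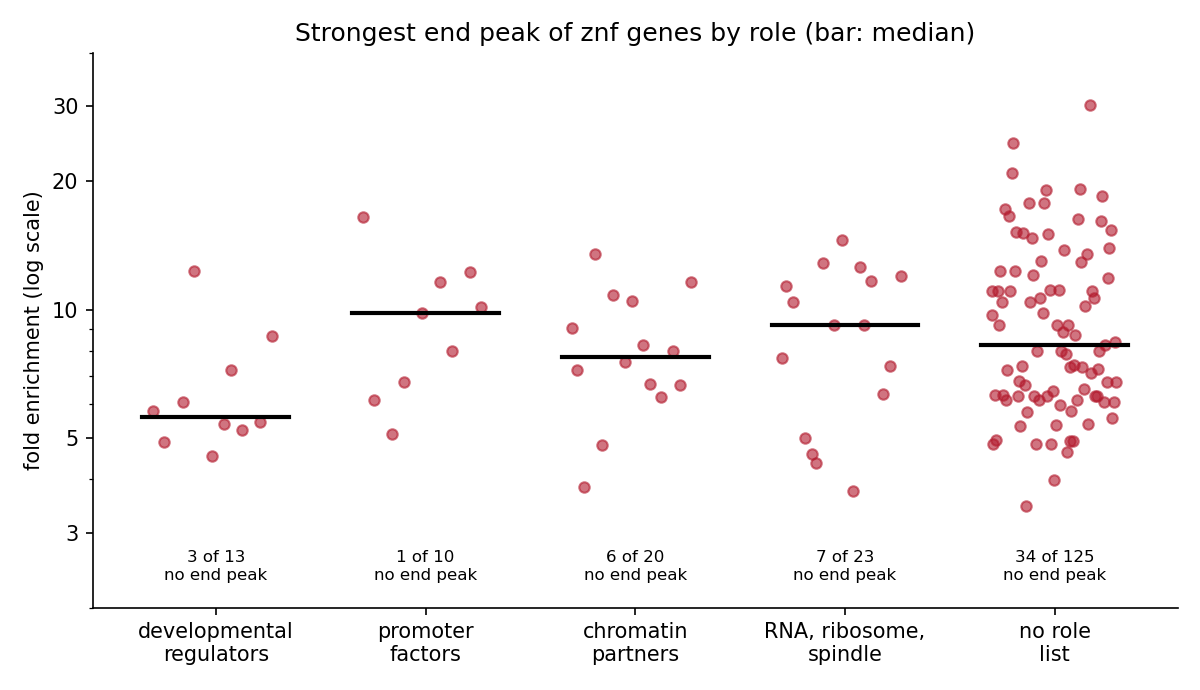
Fold enrichment (log scale) of the strongest end peak of each znf gene by role, with the median as a bar and the number of genes without an end peak below. The medians are 5.62 for developmental regulators, 9.84 for promoter factors, 7.76 for chromatin partners, 9.22 for proteins of RNA, ribosome and spindle, and 8.25 for the rest.

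The factors known to act at promoters had an end peak at 9 of 10 genes (90.0%, 59.6 to 98.2) and a distal peak at 7 (70.0%, 39.7 to 89.2), with a median of 9.84-fold. Both intervals held the shares of the whole family (73.3% and 51.8%) and of named genes (60.9% and 40.9%). The highest was znf143, first described in Xenopus as an activator of genes for small nuclear RNAs and selenocysteine tRNA. Its end peaks were 16.5-fold with 33 fragments at L (22.7 to 46.3) and 11.6-fold with 23 at S (14.6 to 34.5), 35 bp inside and 34 bp outside the gene. Its surroundings held 5 distal peaks at L (chromosome 4L) and 8 at S (chromosome 4S). The distal peaks at S reached only 5.40-fold, and at L 1 of 5 reached 9.22-fold. The abundance of peaks at S was thus made of low peaks.

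The paralogs znf148 and znf281, which bind G-rich promoter elements in mammals, had end peaks at all 4 copies. The values were 5.10-fold (L) and 12.3-fold (S) for znf148, and 9.84-fold (L) and 6.13-fold (S) for znf281. At znf148.L, 8 fragments (3.45 to 15.8) lay at the summit and at znf148.S 20 (12.2 to 30.9). At znf281.L there were 15 (8.40 to 24.7) and at znf281.S 11 (5.49 to 19.7). The intervals overlapped in both pairs, so that no order of the copies can be read. The gene znf711, whose protein brings the demethylase PHF8 to promoters in human cells, had an end peak in both copies, with 10 fragments at L (4.80 to 18.4) and 17 at S (9.90 to 27.2). The single copy of znf384 had 7.99-fold, and znf410.L, whose human counterpart activates CHD4, had no end peak and 2 low distal peaks of 4.82 and 4.30-fold.

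The chromatin partners had an end peak at 14 of 20 genes (70.0%, 48.1 to 85.5) and a distal peak at 13 (65.0%, 43.3 to 81.9). These intervals too held the shares of the family. Of named genes 60.9% had an end peak, within the interval, and 40.9% a distal peak, just below it. Proteins known to act with ZMYND8 in mammals, namely znf592, znf687 and znf532, had an end peak at all 5 genes. The pair of znf687 had 13.5-fold (L) and 7.99-fold (S), and znf592 had 10.5-fold (L) and 3.84-fold (S). At znf592 the fragments were 16 (9.15 to 26.0) at L and 11 (5.49 to 19.7) at S, so that the fold values differed more than the coverage did. The G9a partner znf644 had 11.6-fold (L) and 8.25-fold (S). The gene for znf335, part of an H3K4 methyltransferase complex, had a single peak per copy, of 9.03-fold (L) and 6.69-fold (S), within 11 bp of the end. The Integrator-binding znf609 had 6.23-fold (L) and 10.8-fold (S). At znf827, which brings the NuRD complex to telomeres in human cells, the copies were alike with 7.53-fold (L) and 7.23-fold (S) and 12 fragments each. All these genes are among the 14 of the list with an end peak.

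Other chromatin partners lacked end peaks. The gene znf217, whose protein works with CoREST and CtBP in human cells, had none in either copy. At znf217.L, 3 distal peaks included 1 of 11.9-fold with 20 fragments, 2955 bp outside the gene, whereas the nearest peak to znf217.S lay 58421 bp away. The SUMO ligase gene znf451.L, znf608.S (a paralog of znf609) and znf618.S had no end peak either. The nearest peaks lay 8532 bp from an end of znf608.S, 8022 bp from one of znf618.S and 12059 bp from znf451.L. The L copy of znf516, an LSD1 partner in mammals, had a low end peak of 4.80-fold with 7 fragments, and its S copy had none.

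The proteins of RNA, ribosome and spindle had an end peak at 16 of 23 genes (69.6%, 49.1 to 84.4) and a distal peak at 9 (39.1%, 22.2 to 59.2), with a median of 1 peak within 10 kb. These shares were within counting error of those of the family and of named genes (60.9% with an end peak and 40.9% with a distal peak). Their strongest end peaks had a median of 9.22-fold. The splicing factor gene znf326 had 7.38-fold with 11 fragments (5.49 to 19.7) at L and 14.6-fold with 24 (15.4 to 35.7) at S. The znf598 gene, which encodes a ubiquitin ligase of collided ribosomes, had 9.22-fold (L) and 11.4-fold (S), and 4 distal peaks at L with none at S. The ribosome assembly factor znf593 had 4.99-fold (L) and 6.33-fold (S). Another factor of the large ribosomal subunit, znf622, had no end peak in either copy, and its only peak within 10 kb was 7897 bp from znf622.L. The most peaks within 10 kb in this group were 6 at znf598.L and 5 each at znf106.L and znf385b.L, so that its low median hid a few richer genes.

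The spindle and kinetochore protein znf207, studied in Xenopus egg extracts, had a low end peak of 4.59-fold with 7 fragments at its S copy. The gene znf346.S, for a protein that binds double-stranded RNA, had 11.7-fold with 18. The splicing factor gene znf830.S had 4.37-fold with 8 fragments. The RNA-binding znf106 had 7.72-fold (L) and 12.6-fold (S). End peaks in this group thus spanned low and high values. Within the znf385 family of RNA-binding proteins the values were uneven. The end peaks were 12.9-fold at znf385a.L, 12.0-fold at znf385b.L and 3.76-fold at znf385d.L, whereas znf385a.S, both copies of znf385c and znf385d.S had none. The znf genes in no role list were 125 genes of 83 symbols, with a median of 8.25-fold. An end peak was present at 91 (72.8%) and a distal peak at 59 (47.2%), against 60.9% and 40.9% of named genes.

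No peak within 10 kb was found at 22 znf genes, 10 L and 12 S copies. This is 11.5% of the family, against 36.9% of all and 25.4% of named genes. They were znf142.L, znf217.S, znf319.S, znf365.S, znf366.L, znf385d.S, znf407.S, znf41.S, znf414.L, znf451.L, znf469.L, znf469.S, znf474.L, znf518a.L, znf534.L, znf577.S, znf622.S, znf638.L, znf704.S, znf710.S, znf770.S and znf81.L. The nearest peak lay 10743 bp (znf142.L) to 146228 bp (znf319.S) away. Of the 22, 16 belong to a homeolog pair, and in 14 of these the other copy had a peak within 10 kb, in 9 an end peak. The like counts over all pairs were not set beside these, so that they cannot be called unusual. Both copies lacked a peak within 10 kb of an end at znf469 alone. Deeper inside the gene, 3 of the 22 had a peak, namely znf385d.S, znf469.S and znf638.L.

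The L and S copies of the 69 pairs were then compared. Both copies had an end peak in 44 pairs, 63.8% (52.0 to 74.1), against 52.9% of 7759 pairs over all genes. The L copy alone had one in 11 pairs (15.9%, 9.14 to 26.3) against 11.0%. The S copy alone had one in 5 pairs (7.25%, 3.13 to 15.9) against 8.69%. Neither had one in 9 pairs (13.0%, 7.02 to 23.0) against 27.4%. The copies were thus in the same state in 76.8% of znf pairs (65.6 to 85.2), and this share did not exceed the 80.3% over all pairs. The interval of the share with neither lay below the value over all pairs.

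By subgenome, 55 L copies (79.7%, 68.8 to 87.5) and 49 S copies (71.0%, 59.4 to 80.4) of the pairs had an end peak, and these intervals overlapped. Over all pairs the shares were 63.9% of L and 61.6% of S copies. The 53 znf genes outside pairs had an end peak at 67.9% (54.5 to 78.9), which did not differ from the pairs beyond counting error. Among all named genes outside pairs the share was 56.6%, which also lay within this interval.

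An end peak at 1 copy alone was usually a low one. In the 16 pairs with such a peak, its median was 5.31-fold and 10.5 fragments, against 8.53-fold and 15 fragments over the 88 copies of pairs with a peak at both. Over all pairs the corresponding values were 6.40-fold with 11 fragments and 8.47-fold with 15. The exceptions were znf365.L with 16.3-fold and 27 fragments (17.8 to 39.3) and znf385a.L with 12.9-fold and 21 fragments (13.0 to 32.1). The summit at znf365.L lay 113 bp outside the gene. Unlike znf365.S, znf365.L had the end of another gene within 1 kb of its own ends. Whether that gene shares the peak was not tested. At znf365.S the nearest peak was 35050 bp away, and at znf385a.S it was a distal peak 1794 bp from an end. At S alone the highest was znf638.S, an RNA-binding nuclear protein, with 9.22-fold and 18 fragments (10.7 to 28.4).

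Where both copies had a peak at only 1 of their ends, it could be asked whether it was the same end of the gene. The ends were matched by the order of neighbouring homeolog pairs, which ran the same way around 52 znf pairs, the opposite way around 16 and was unclear around 1. In 40 pairs this could be scored, and in 40 of 40 (Wilson interval 91.2 to 100) the peak lay at the matching end. Over all pairs it did in 97.7% of 3585. In the 4 other pairs with an end peak at both copies, znf238.2, znf605, znf687 and znf852, the ends were not scored, because a copy had peaks at both ends or the gene order was unclear. Which end is the gene's start was not known.

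The heights of the end peaks were loosely related between copies. Over the 44 pairs Spearman's rho between the fold enrichments at L and S was 0.46, and over all 4108 such pairs it was 0.43. Pairs are not independent replicates, both copies were measured in the same libraries, and low counts limit such a value. The L peak was higher in 21 of 44 pairs. High at both were znf395 (20.9 at L and 30.1 at S), znf438 (15.1 and 16.2), znf362 (15.0 and 12.3) and znf654 (14.8 and 14.0). The most unequal in fold included znf592, above, and znf131. The latter had 9.70-fold and 19 fragments (11.4 to 29.7) at L and 4.92-fold and 7 fragments (2.81 to 14.4) at S. These intervals overlapped, so that no order of the copies can be read. The S copy also had an end peak of 4.38-fold with 15 fragments, 548 bp inside the gene, and the L peak lay 553 bp inside. The inequality of znf131 thus rests on ranking end peaks by fold.

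**Figure D4:**
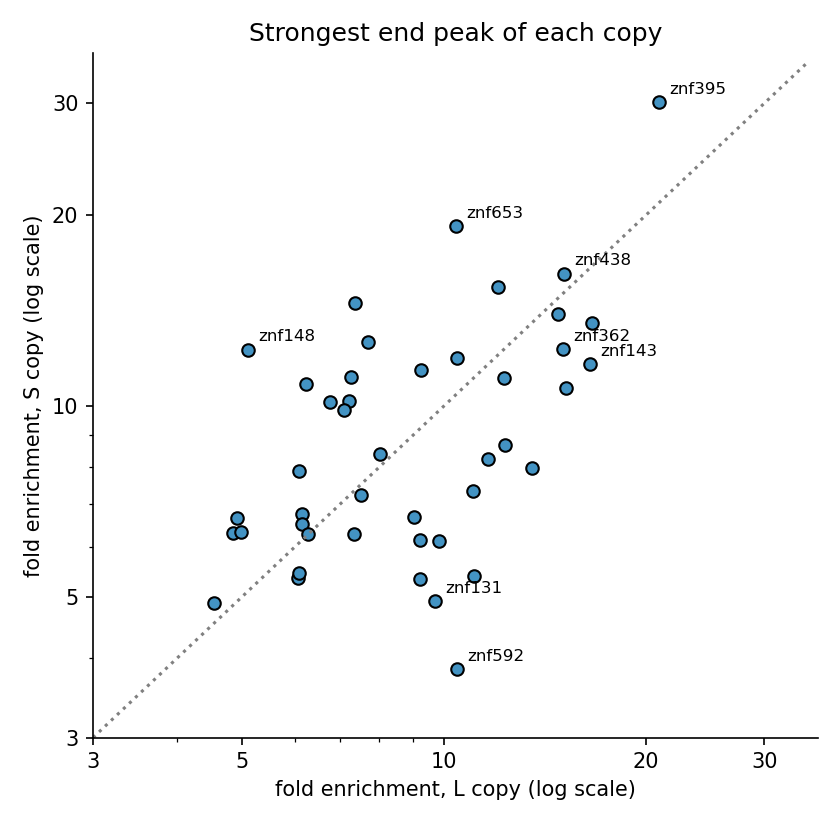
Fold enrichment (log scales) of the strongest end peak of the L copy and the S copy in 44 znf pairs with an end peak at both. Points scatter on both sides of the dotted line of equal height, with L higher in 21 pairs, and znf395 lies highest with 20.9 and 30.1.

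The number of peaks within 10 kb was higher at L in 30 pairs (43.5%) against 37.8% of all pairs, higher at S in 25 (36.2%) against 29.1%, and equal in 14 (20.3%) against 33.2%. The sums were 173 peaks at L copies and 167 at S copies, against 18071 and 15982 over all pairs. Spearman's rho of the counts was 0.43 over the 69 pairs and 0.57 over all pairs. The family was thus close to even between subgenomes in sum, and equal counts were less frequent than over all pairs. Pairs without a peak at either copy also count as equal. No peak lay within 10 kb of 7.25% of L and 15.9% of S copies in znf pairs, against 22.6% and 25.6% over all pairs. How far this accounts for the fewer equal counts was not tested.

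**Figure D5:**
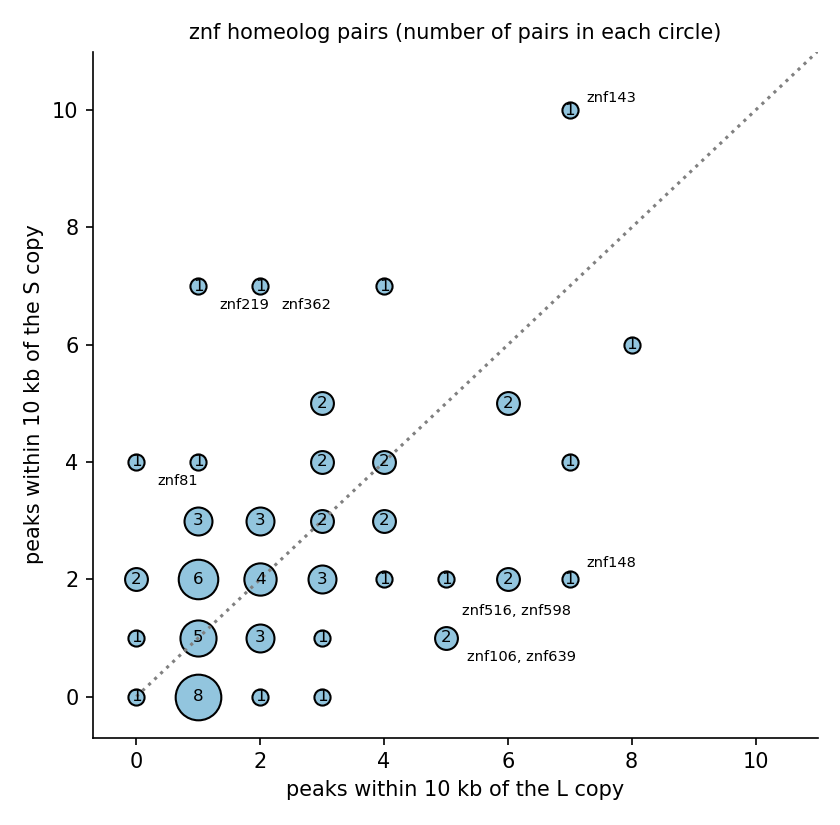
Peaks within 10 kb of the L copy and of the S copy of 69 znf pairs, with the number of pairs in each circle and its area in proportion. Above the dotted line of equal counts lie 25 pairs, led by znf219 (1 and 7) and znf362 (2 and 7), and below it 30, led by znf148 (7 and 2).

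The pairs with the largest excess at L were znf148 (7 at L and 2 at S), followed by znf516 and znf598 (6 and 2 each), znf106 and znf639 (5 and 1 each), znf839 (7 and 4), znf536 (5 and 2) and znf217 (3 and 0). The largest excess at S was that of znf219 (1 at L and 7 at S), followed by znf362 (2 and 7), znf81 (0 and 4), znf143 (7 and 10), znf665l (4 and 7), znf800 (1 and 4), znf367 (3 and 5) and znf609 (3 and 5). When only peaks with a −log10 q-value of at least 10 were counted, 7 of these 16 pairs kept their direction, 5 were equal and 4 turned. The excess of most named pairs thus rested on low peaks.

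At znf148 the L copy (chromosome 9_10L, 56367508 to 56384601) had 6 distal peaks and the S copy (9_10S, 48135413 to 48148171) none. The 6 ranged from 3.09 to 7.19-fold with 5 to 12 fragments, while the end peak of S was of 12.3-fold and that of L of 5.10-fold. The fragment intervals of these end peaks overlapped, as given above, so that no order of the copies can be read from them. At znf362, a relative of znf384, the S copy had 3 distal peaks of 3.09 to 6.79-fold and 2 further peaks at the end of another gene, the stronger of 15.4-fold, while both copies had high end peaks of 15.0-fold (L) and 12.3-fold (S). At znf81 neither copy had an end peak, and 4 distal peaks lay around S alone.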

How the data were processed

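According to the study's methods, with versions from the submitters' processing notes, reads were aligned to X. laevis v10.1 (Bowtie2 2.4.2) and filtered for mapping quality. Short fragments of all stage 9 libraries were pooled by the authors, and MACS2 2.2.7.1 called peaks with no-antibody CUT&RUN fragments as the control. The notes also list bedtools 2.30.0. Reads that fit several places equally well were thereby lost, which can hide peaks at near-identical copies. The authors also removed peaks on rRNA and small RNA loci. The deposited list gives for each peak its fold enrichment (a ratio), p-value and q-value (both as −log10), a score derived from the latter, and the summit. The ratio includes a pseudocount of 1.

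From these, fold and p-value were inverted to whole fragments at the summit, and at 99.998% of peaks the deposited p-value came back (relative tolerance 0.0001). The inversion and the counting of peaks were tested on simulated data. Genes came from the RefSeq table of v10.1, without strand or sequence here, so that the planned counts of zinc fingers and promoter motifs were not made. The 10 kb windows start at both ends of a gene and hold all summits up to that distance, also inside. Shares are over genes, and copies and neighbouring genes are not independent. Homeolog pairs have exactly 1 .L and 1 .S copy, each on the matching chromosome. Local gene order was read from up to 5 pairs on each side within 2 Mb.

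Genes named were the 10 with most peaks within 10 kb (ties included), the 10 with the highest end peak, the 8 pairs with the largest difference on each side, those of the role lists and of runs, and all without a peak. Others were named after their values were seen (the pairs of highest or most unequal end peaks, genes with 4 end peaks, peaks at 1 copy alone, genes of 6L). The members and lists were chosen with earlier results of these data known. Alternatives were other windows, stricter peaks, other gene sets and pairs of close length. Those chosen after seeing the data were the background of named genes, genes of 10 to 50 kb and the matching of ends. Python 3.11.15, pandas 2.3.3 and scipy 1.17.1 were used.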

Additional observations from a re-analysis of the deposited data

How the results depend on the processing

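The share of znf genes with an end peak was 66.5% with windows of 500 bp (44.6% of all genes). Among peaks of at least the median fold enrichment it was 60.7% (38.3%), and 36.1% (22.9%) at a −log10 q-value of at least 10. Under the other 8 alternatives it moved by less than its counting interval. Of these 8, the background of named genes changes only the comparison and could not move the znf share. The distal share was 39.8% within 5 kb (25.4%), 83.8% within 50 kb (68.3%), 32.5% at the median fold enrichment or more (18.3%) and 11.0% at the stricter q-value (6.76%). The znf share stayed above that of all genes in each of these. Named genes, the closer comparison, were not set beside the other windows, distances or fold limit, or the distal share at the stricter q-value. For end peaks at the stricter q-value, the znf interval of 29.6 to 43.1 reached the named share of 29.6%. Of the pairs, 15 had an end peak at both copies, 9 at S alone and 34 at neither under the stricter q-value, so that the excess at L alone (11) was then near that at S. With peaks of at least the median fold, S alone held 9 pairs and neither 19. Of 13 pairs with copies no more than 5% apart in length, 8 had an end peak at both, 4 at L alone, 1 at neither and 0 at S alone. For a share of 0, an upper limit of 3 counts was taken, here 23.1% of the 13 pairs, which is not a Wilson interval. The counts of these pairs are lower because fewer pairs remain. At the stricter q-value 7 of the 16 named pairs kept the direction of their difference in peak number. It turned at znf148, znf516 and znf598, each to an L minus S difference of -1, and at znf143, to 1. The change follows from leaving out low peaks. No paired analysis was possible because the replicates were pooled by the authors in 1 list, and no replicate could be left out for the same reason.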

Other observations

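Corepressors that many C2H2 zinc finger proteins recruit, with the cohesin loader gene nipbl, which is no corepressor, were described from a list of 30 symbols, of which 27 were in the gene table, with 48 genes. An end peak was present at 39 (81.2%, 68.1 to 89.8), against 47.8% of all and 60.9% of named genes. A distal peak within 10 kb was present at 28 (58.3%, 44.3 to 71.2), against 35.9% and 40.9%. The scaffold trim28, which binds KRAB-type zinc finger proteins in mammals, had end peaks of 11.1-fold (L) and 9.22-fold (S) and no distal peak. The heterochromatin protein gene cbx5 had 15 distal peaks around its L copy and 11 around its S copy, with end peaks of 17.8 and 25.2-fold. The highest end peaks of the list were those of nipbl, of 32.2-fold (L) and 40.2-fold (S). No peak lay within 10 kb of atf7ip.S, ctbp1.L, ctbp1.S, ctbp2.S, gatad2a.L and setdb1.L.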
